A study of Homo sapiens with 24 samples.

Results

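The genes described here are 8 regulators of messenger RNA decay, of 33127 genes with a matched transcript in the count table: ZFP36, ZFP36L1, ZFP36L2, KHSRP, HNRNPD, ELAVL1, ZC3H12A and RC3H1. They were chosen by name as proteins that act on AU-rich elements (AREs) or on stem-loops in the 3′ UTR. The choice rule uses no measured value, but the genes were proposed with earlier results of these data known. The deposited transcript counts were summed for each gene. A549, an established human lung adenocarcinoma cell line, was exposed to dexamethasone (dex) at 100 nM or to ethanol (EtOH) alone as the vehicle. Dex is a synthetic glucocorticoid (GC) that activates the GC receptor (GR). Ethanol was at 0.02% by volume in the dex groups as well as in the EtOH groups. RNA was sequenced after 1, 3, 5, 7, 9 and 11 h. Each of the 12 groups, 1 treatment at 1 time, had 2 libraries, which makes 24. No group carried a genetic change, and all are 1 cell line.

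AREs are stretches rich in A and U in the 3′ UTR of short-lived mRNAs, among them those of cytokines, chemokines and growth regulators. ZFP36 (also called tristetraprolin) and its relatives ZFP36L1 and ZFP36L2 bind AREs through CCCH zinc fingers and bring in the CCR4-NOT complex, which shortens the poly(A) tail. KHSRP and HNRNPD (AUF1) are ARE-binding proteins of other families that promote decay, while ELAVL1 (HuR) binds similar elements and tends to stabilize the mRNA. ZC3H12A (Regnase-1) is an endonuclease that cuts inflammatory mRNAs at stem-loops, and RC3H1 (Roquin-1) binds such stem-loops and recruits deadenylases. GCs are known to lower many inflammatory mRNAs in airway epithelial cells, and ZFP36 is a known GC-induced gene.

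AREs also occur in the mRNAs of the regulators themselves. Each 3′ UTR was searched in the sense direction for the ARE nonamer TTATTTATT, the heptamer TATTTAT and the pentamer ATTTA, with overlapping matches counted and each shorter motif also counted inside the longer. A nonamer was found once in each of ZFP36, ZFP36L1, ZFP36L2 and ELAVL1. The sequences shown are the 30 transcribed bases around each of these matches, as DNA letters from GENCODE release 29, because they are the elements that ZFP36 family proteins are known to bind. The nonamer is in capitals.
ZFP36: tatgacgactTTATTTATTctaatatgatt
ZFP36L1: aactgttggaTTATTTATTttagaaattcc
ZFP36L2: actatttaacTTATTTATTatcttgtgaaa
ELAVL1: atttatgtatTTATTTATTgaagtgtgaaa
On GRCh38 these windows lie at chr19:39409196-39409225 on the plus strand (ZFP36), and on the minus strand at chr14:68788076-68788105 (ZFP36L1), chr2:43223447-43223476 (ZFP36L2) and chr19:7961827-7961856 (ELAVL1), each in the 3′ UTR. The ZFP36 3′ UTR, of 713 bases, held 3 heptamers and 5 pentamers, and 4.96% of 3′ UTRs within 20% of that length held a nonamer. For ZFP36L1 (1871 bases, 3 heptamers, 8 pentamers) the like-length share was 8.74%, for ZFP36L2 (1917 bases, 3 heptamers, 5 pentamers) 8.82%, and for ELAVL1 (4904 bases, 5 heptamers, 13 pentamers) 22.7%. Over the 18969 genes searched the share was 7.6%. KHSRP and ZC3H12A held none of the 3 motifs, HNRNPD held 2 pentamers, and RC3H1 held 2 heptamers and 21 pentamers in a 3′ UTR of 7507 bases. A match is a stretch of letters and not a measured binding site.

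On GRCh38 with GENCODE release 29, ZFP36 lies at chr19:39406813-39409412 on the plus strand, ZFP36L1 at chr14:68787660-68796253 on the minus strand, and ZFP36L2 at chr2:43222402-43226609 on the minus strand. KHSRP (chr19:6413348-6424794), HNRNPD (chr4:82352498-82374503), ELAVL1 (chr19:7958579-8005659) and RC3H1 (chr1:173931214-174022297) are on the minus strand, and ZC3H12A (chr1:37474552-37484379) is on the plus strand. Overlapping noncoding genes at HNRNPD, ELAVL1 and RC3H1 held 21, 19 and 15 counts over all libraries, against 51261, 32175 and 15437 counts for the 3 genes. The smallest total was 4862 counts, for ZC3H12A, and ZFP36 held 9097. All 8 genes passed the filter on low counts, as did 15337 genes in all.

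Library totals ranged from 6708864 to 13748598 counts. KRT8 and KRT18, keratins of simple epithelia, were at 1523 to 5433 and 1856 to 5876 CPM (counts scaled to the library's normalized total), and CDH1, the epithelial cadherin, at 30.6 to 64.2 CPM. Of the other epithelial markers KRT19 reached 22.5 CPM and EPCAM 11.8 CPM. The alveolar type II markers SFTPC, SFTPB and NKX2-1 were each below 0.67 CPM in every library, and CD3E was at 0. Of the other immune markers CD68 reached 6.40 CPM and CD14 3.84 CPM, and of the fibroblast markers COL1A1 reached 23.8 CPM while COL1A2 stayed below 0.11 CPM. The 5 epithelial markers summed to 4127 to 11329 CPM with dex and 3429 to 5483 CPM with EtOH, the 5 immune markers to 3.79 to 9.93 CPM and 5.56 to 9.15 CPM, and the 5 fibroblast and smooth muscle markers to 6.32 to 26.1 CPM and 12.3 to 21.8 CPM. Their part in the results was not tested. In bulk RNA a change in the number of expressing cells and a change in RNA per cell cannot be told apart, and neither protein nor decay rates were measured here. The labels do not say that replicates came from separate cultures, so p-values measure the spread between these libraries, which may be technical.

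Dex raised ZFP36 and ZC3H12A at every time point and ZFP36L2 at 5 of 6, while ZFP36L1 was lower at 3 and 7 h and the other 4 genes passed the test at no time point. A gene is called here when edgeR's quasi-likelihood test of 2 dex against 2 EtOH libraries gave an adjusted p (Benjamini-Hochberg over the 15337 genes) of at most 0.1. At 1 h, 2 of the 8 genes were called, both higher, against 1.04% of all genes tested. The counts were 4 of 8 at 3 h (14.2% of all genes), 3 of 8 at 5 h (25.0%), 4 of 8 at 7 h (28.3%), 3 of 8 at 9 h (19.7%) and 3 of 8 at 11 h (9.08%). Each called gene was higher with dex except ZFP36L1. The median log2 fold change of the 8 genes lay between 0.00 at 7 h and 0.24 at 9 h, and that of all genes between -0.03 and 0.01.

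**Figure D1:**
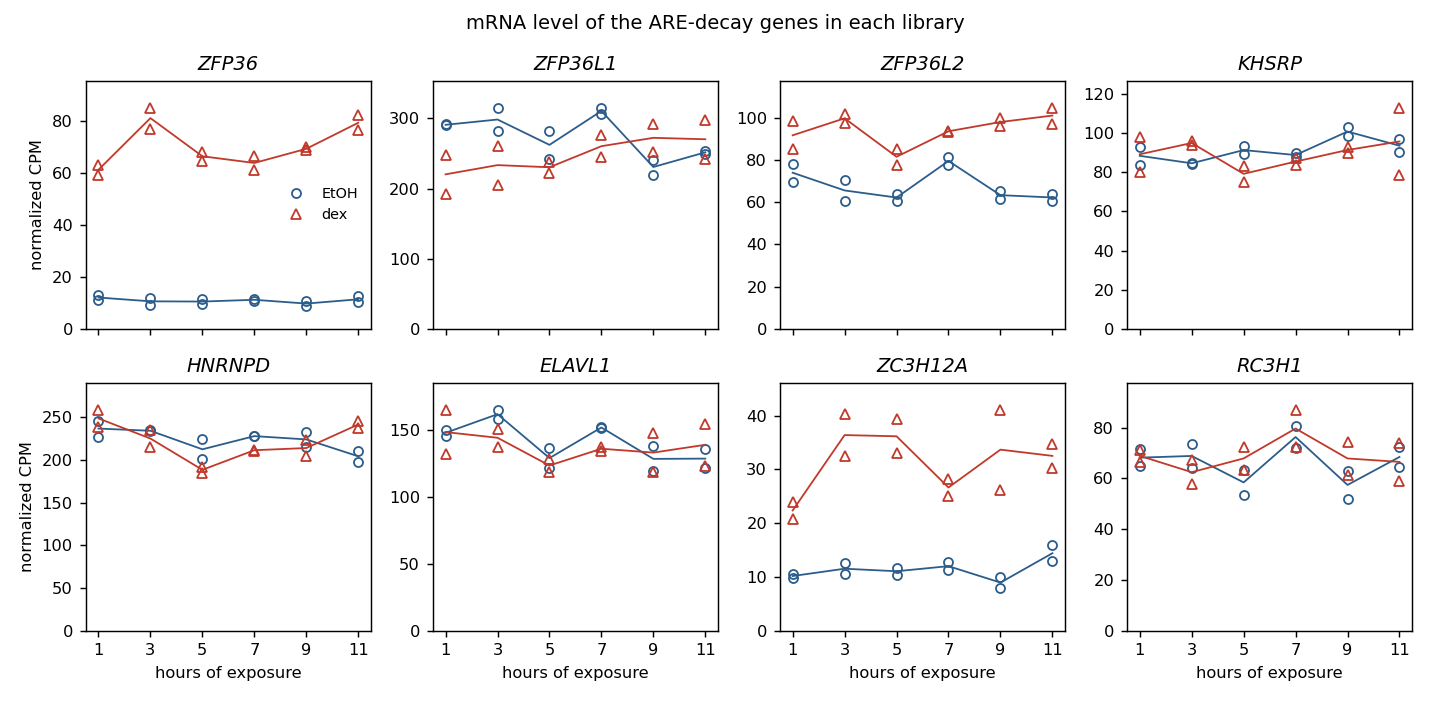
Normalized CPM (vertical axes, from 0) of the 8 genes against hours of exposure, with 1 symbol per library, triangles for dex and circles for EtOH, and lines through the mean of 2 libraries. For ZFP36 and ZC3H12A every dex library lies above every EtOH library, while the ranges of dex and EtOH over the series overlap for KHSRP, HNRNPD, ELAVL1 and RC3H1.

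ZFP36, the CCCH decay factor named first, was low with the vehicle and high within 1 h of dex. At 1 h, the dex libraries held 59.2 and 63.1 CPM of ZFP36, and the EtOH libraries 11.1 and 12.9 CPM. At 3 h they held 76.9 and 85.03 CPM against 9.23 and 11.8 CPM. At 5 h they held 68.1 and 64.5 CPM against 11.3 and 9.57 CPM. The dex libraries of all 3 times were thus well above the EtOH libraries, and the later times were alike. At 7 h ZFP36 was at 66.5 and 60.9 CPM with dex and at 11.4 and 10.8 CPM with EtOH. At 9 h the pairs were 68.6 and 69.8 CPM against 10.7 and 8.62 CPM. At 11 h they were 82.1 and 76.3 CPM against 10.2 and 12.4 CPM. Over the series the lowest dex library, at 59.2 CPM, was above the highest EtOH library, at 12.9 CPM.

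In fold terms ZFP36 rose 5.07-fold at 1 h (log2 fold change 2.34 ± 0.15, SE, n = 2 and 2, adjusted p = 8.84e-09 by edgeR). The log2 fold change was 2.93 ± 0.14 at 3 h (adjusted p = 1.09e-15), 2.67 ± 0.14 at 5 h (1.46e-19), 2.52 ± 0.12 at 7 h (6.82e-20), 2.83 ± 0.15 at 9 h (3.35e-08) and 2.80 ± 0.17 at 11 h (1.55e-06). Counted from the highest log2 fold change, ZFP36 was 12th of the 15337 genes at 1 h, and between the 53rd and the 117th at the later times. The difference in its dex effect between time points did not pass the test (F-test over 24 libraries, adjusted p = 0.218), and between 1 h and 3 h the log2 difference was 0.59 ± 0.20 (adjusted p = 0.108). Time alone in the EtOH libraries gave an adjusted p of 0.834. The transcripts ZFP36-203 and ZFP36-202 held 47.7% and 47.0% of its counts, and both rose at every time point, for example by log2 values of 2.42 and more for ZFP36-203. How reads matching both transcripts were placed is not stated, so the split between them is uncertain.

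ZFP36L2, a relative of ZFP36 listed with 1 transcript, rose less. At 1 h its dex libraries held 98.4 and 85.1 CPM, and its EtOH libraries 78.3 and 69.7 CPM. At 3 h they held 97.8 and 101.8 CPM against 70.7 and 60.5 CPM. At 5 h they held 77.8 and 85.3 CPM against 63.9 and 60.5 CPM. Both dex libraries were above both EtOH libraries at each of these times, though by less than for ZFP36. At 7 h ZFP36L2 was at 93.9 and 93.4 CPM with dex and at 81.6 and 77.5 CPM with EtOH. At 9 h the pairs were 96.4 and 99.8 CPM against 61.5 and 65.2 CPM. At 11 h they were 104.9 and 97.3 CPM against 60.6 and 63.9 CPM. The groups again did not overlap at any of the later times. Groups of 2 and 2 libraries did not overlap for 34.6% of all genes tested at 1 h and for up to 58.7% at 7 h.

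ZFP36L2 was 1.24-fold higher at 1 h, which did not pass the test (log2 fold change 0.32 ± 0.12, adjusted p = 0.55). It rose by a log2 fold change of 0.61 ± 0.11 at 3 h (adjusted p = 2.27e-04), 0.39 ± 0.11 at 5 h (0.00852), 0.24 ± 0.09 at 7 h (0.0494), 0.63 ± 0.12 at 9 h (0.00182) and 0.70 ± 0.14 at 11 h (0.00799), by edgeR's quasi-likelihood test. The largest of these is 1.62-fold, at 11 h. Some calls were lost with 1 library fewer: the 5 h call without dex replicate 2 (log2 fold change 0.32, adjusted p = 0.113), the 7 h call without dex replicate 1 (0.23, adjusted p = 0.274), dex replicate 2 (0.24, adjusted p = 0.231) or EtOH replicate 2 (0.20, adjusted p = 0.134), and the 11 h call without EtOH replicate 1 (0.66, adjusted p = 0.266) or 2 (0.74, adjusted p = 0.162). The fold changes thus stayed close to those with all libraries. The 7 h call was also lost with DESeq2 (adjusted p = 0.189), in a fit over all 24 libraries, and with 1 transcript per gene (adjusted p = 0.118 by edgeR). The effect did not differ between time points past the threshold (adjusted p = 0.108).

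ZFP36L1, the family member with the most RNA in these cells, went the other way at the early times. At 1 h it was at 248.4 and 192.1 CPM with dex and at 291.6 and 290.2 CPM with EtOH. At 3 h the pairs were 205.6 and 261.2 CPM against 282.5 and 314.4 CPM. At 5 h they were 222.4 and 238.3 CPM against 242.0 and 282.6 CPM. Both dex libraries lay below both EtOH libraries at these times. The order still held at 7 h, with 276.0 and 244.8 CPM against 315.5 and 305.7 CPM. It turned at 9 h, with 291.9 and 252.8 CPM against 241.4 and 220.0 CPM. At 11 h the groups overlapped, with 298.2 and 242.4 CPM against 249.7 and 253.6 CPM. Groups of 2 and 2 libraries did not overlap for 34.6% of all genes tested at 1 h. The share was 51.7% at 3 h, 55.7% at 5 h, 58.7% at 7 h and 55.1% at 9 h. Of these times, ZFP36L1 passed the test only at 3 and 7 h.

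The log2 fold change of ZFP36L1 was -0.40 ± 0.12 at 1 h (adjusted p = 0.224), -0.36 ± 0.11 at 3 h (adjusted p = 0.0308), -0.19 ± 0.10 at 5 h (0.223), -0.25 ± 0.08 at 7 h (0.0139), 0.24 ± 0.12 at 9 h (0.209) and 0.10 ± 0.14 at 11 h (0.801), by edgeR. The 3 h call was lost without dex replicate 1 (log2 fold change -0.19, adjusted p = 0.529) and without EtOH replicate 2 (adjusted p = 0.172), and the 7 h call without dex replicate 2 (adjusted p = 0.365) and in a fit over all 24 libraries (0.201). At 1 h the value without dex replicate 1 was -0.60 (adjusted p = 5.93e-06), and at 9 h the value without EtOH replicate 1 was 0.30 (0.00668). ZFP36L1 was the 1 gene of 8 whose dex effect differed between time points (F-test, adjusted p = 0.0573), as did that of 15.4% of all genes. This call was lost at a threshold of 0.05 and when any 1 of 5 libraries was left out (dex replicate 1 at 9 h, either EtOH library at 1 h, EtOH replicate 2 at 9 h and EtOH replicate 1 at 11 h), with adjusted p of 0.0117 to 0.193 over the 24 libraries left out in turn. The log2 fold change at 9 h exceeded that at 1 h by 0.64 ± 0.18 (adjusted p = 0.0279) and that at 3 h by 0.59 ± 0.18 (adjusted p = 0.058), among 15 pairs of time points compared, each adjusted over all genes tested. It was also the 1 gene of 8 called for a change over time in EtOH alone (adjusted p = 0.0721), as were 3.33% of all genes, a call that held for 3 of the 12 EtOH libraries left out in turn, and its EtOH mean fell from 310.6 CPM at 7 h to 230.7 CPM at 9 h. The means thus differed between times in the vehicle libraries as well as in the dex libraries, whose mean went from 220.2 CPM at 1 h to 272.4 CPM at 9 h. A change over time within the dex libraries alone was not tested, and their 2 replicates were spread at both times.

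Levels can be set side by side between genes only per length, here as counts divided by transcript length and scaled to a common total (TPM). In the 12 EtOH libraries ZFP36L1 had a median of 181.0 TPM (range 140.8 to 204.1), ZFP36L2 31.6 TPM (29.9 to 40.7) and ZFP36 13.0 TPM (9.75 to 15.3), so that no 2 of the 3 ranges overlapped. In the 12 dex libraries the medians were 160.2 TPM (124.8 to 186.6), 46.5 TPM (37.7 to 51.5) and 77.5 TPM (64.9 to 96.6), and ZFP36 had passed ZFP36L2. ZFP36 made up 5.58% (4.54 to 6.53%) of the summed family level with EtOH and 28.3% (23.9 to 32.8%) with dex. The share of ZFP36L1 was 78.9% with EtOH and 56.1% with dex, and that of ZFP36L2 15.2% and 15.8%. The family sum had a median of 224.1 TPM with EtOH (181.9 to 258.4) and 283.9 TPM with dex (238.3 to 329.7), and both dex libraries lay above both EtOH libraries at 5 of 6 time points. The share of ZFP36 was higher in both dex libraries at all 6 time points, and that of ZFP36L1 lower at all 6. The 3 shares make up a whole, so a rise of ZFP36 by itself lowers the share of ZFP36L1. At 9 h the level of ZFP36L1 was 186.6 and 162.0 TPM with dex, above the 159.5 and 140.8 TPM with EtOH. By CPM, groups of 2 and 2 libraries did not overlap for 34.6% (1 h) to 58.7% (7 h) of all genes tested. The family shares are RNA levels, given as a description.

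**Figure D2:**
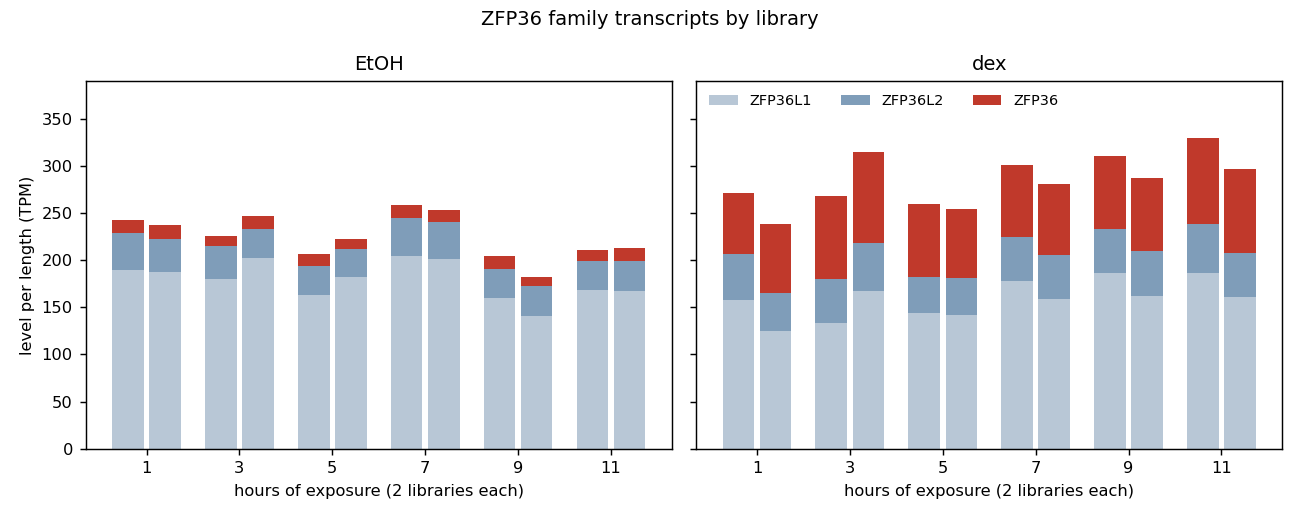
Level per length (TPM) of ZFP36L1, ZFP36L2 and ZFP36, stacked, in each library with EtOH (left) and dex (right) by hours of exposure, 2 bars per time point. ZFP36 is a thin cap of 4.54 to 6.53% with EtOH and 23.9 to 32.8% of each dex bar.

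ZC3H12A, the Regnase-1 endonuclease, was the other gene that rose throughout. At 1 h its dex libraries held 20.8 and 23.9 CPM, and its EtOH libraries 10.6 and 9.80 CPM. At 3 h the dex libraries held 32.5 and 40.3 CPM against 10.6 and 12.5 CPM. At 5 h the values were 33.0 and 39.3 CPM with dex against 10.5 and 11.7 CPM with EtOH. The dex libraries were about the same at these last 2 times and above those of 1 h. At 7 h ZC3H12A was at 25.1 and 28.2 CPM against 12.8 and 11.3 CPM. The 9 h dex libraries were spread, at 26.3 and 41.1 CPM, against 10.1 and 7.87 CPM with EtOH. At 11 h the pairs were 34.8 and 30.3 CPM against 16.0 and 12.9 CPM. No dex library overlapped an EtOH library at any time. Groups of 2 and 2 libraries did not overlap for 34.6% (1 h) to 58.7% (7 h) of all genes tested.

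ZC3H12A rose 2.19-fold at 1 h (log2 fold change 1.13 ± 0.18, adjusted p = 0.00147 by edgeR), 3.14-fold at 3 h (1.65 ± 0.16, 3.21e-09), 3.25-fold at 5 h (1.70 ± 0.15, 4.27e-12), 2.20-fold at 7 h (1.14 ± 0.14, 3.15e-08), 3.80-fold at 9 h (1.93 ± 0.22, 6.54e-05) and 2.26-fold at 11 h (1.18 ± 0.19, 0.00179). The log2 fold change at 9 h exceeded that at 1 h by 0.80 ± 0.28 (adjusted p = 0.0891), among 15 pairs of time points compared. The F-test over all 6 time points did not pass (adjusted p = 0.116). Its level per length had a median of 8.59 TPM with EtOH (5.61 to 15.0) and 25.3 TPM with dex (20 to 32.7). ZC3H12A-201 held 96.0% of the counts. Like ZFP36 mRNA, this transcript rose at the first time point. Its 3′ UTR of 768 bases held none of the 3 ARE motifs. Of 3′ UTRs within 20% of that length, 4.98% held a nonamer and 21.3% a heptamer.

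The stretch upstream of the start was searched because ZFP36 and ZC3H12A moved together. RefSeq promoters on GRCh38.p14, of 250 bases before the start, were at hand for 6 of the 8 genes (not ZFP36L2 or ELAVL1). The hexamer AGAACA, which makes up part of the GR binding site, was searched on both strands and was in HNRNPD and RC3H1, in none of the other 4, and in 12.4% of 35116 promoters. TATAA on the coding strand began at position -30 from the start of ZFP36 and at -27 from that of ZC3H12A, and it began between -40 and -21 in 3.89% of promoters. The 30 bases around it are shown for both, with TATAA in capitals.
ZFP36: cttgcagtttccTATAAgtagccggctctc
ZC3H12A: cgcgccgccccaTATAAaggcgccgccgtc
These windows are chr19:39406805-39406834 and chr1:37474541-37474570, both on the plus strand. The RefSeq starts lie downstream of the GENCODE gene starts given above, so that by GENCODE the TATAA is just inside both genes. HNRNPD and RC3H1 held TATAA farther from the start, and the other 2 did not hold it. A missing motif says only that these letters are not in this window.

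**Figure D3:**
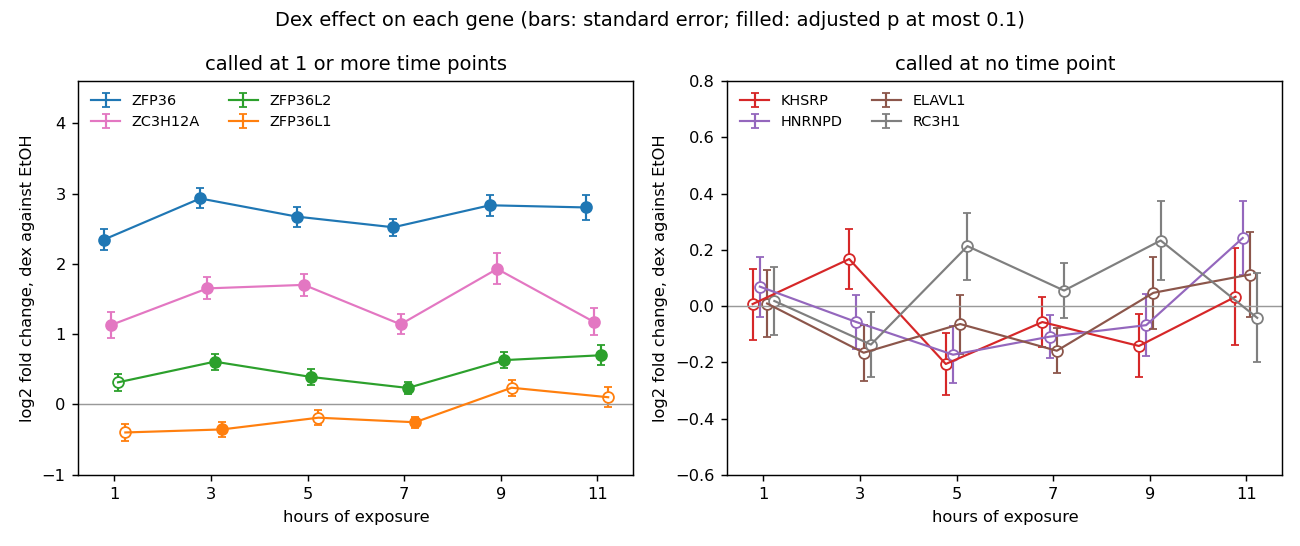
Log2 fold change of dex against EtOH (vertical axes, with different ranges) by hours of exposure, for the 4 genes called at 1 or more time points (left) and the 4 called at none (right). Bars are the standard error and filled symbols have an adjusted p of at most 0.1. ZFP36 stays between 2.34 and 2.93, ZC3H12A between 1.13 and 1.93, and the genes on the right between -0.21 and 0.24.

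The other ARE-binding decay factors, KHSRP and HNRNPD, were abundant and passed the test at no time point. KHSRP had a median level per length of 147.5 TPM with EtOH (131.8 to 162.4) and 139.9 TPM with dex (116.9 to 167.8). Its log2 fold change ran from -0.21 at 5 h to 0.17 at 3 h (lowest adjusted p 0.202). Over the 6 time points the 95% intervals of the difference, taken from the SE and the degrees of freedom of the test, reached from -0.43 to 0.41. At 11 h KHSRP depended on single dex libraries, with 0.27 without dex replicate 1 (adjusted p = 0.0453) and -0.25 without dex replicate 2 (adjusted p = 0.119). HNRNPD was the most abundant of the 8 per length, at 334.2 TPM with EtOH (292.9 to 377.2) and 317.1 TPM with dex (264.8 to 381.7). Its log2 fold change ran from -0.17 at 5 h to 0.24 at 11 h (lowest adjusted p 0.261), with intervals reaching from -0.38 to 0.52. At 11 h it passed in the fit over 24 libraries (adjusted p = 0.0814) and without dex replicate 2 (0.0769). HNRNPD-211 and HNRNPD-209, annotated as targets of nonsense-mediated decay, held 16.0% and 4.11% of its counts, under the same limit on reads that match several transcripts.

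ELAVL1, the stabilizing ARE-binding protein, had a median of 87.8 TPM with EtOH (74.4 to 107.4) and 80.7 TPM with dex (70.2 to 103.5). Its log2 fold change lay between -0.17 at 3 h and 0.11 at 11 h (lowest adjusted p 0.166, at 7 h), with 95% intervals from -0.37 to 0.44. Its transcript ELAVL1-205, with 22.1% of the counts, was called lower at 3 h (log2 fold change -0.42, adjusted p = 0.0805) and at 7 h (-0.38, adjusted p = 0.0325), while ELAVL1-201, with 72.5% of the counts, was not called (-0.10, adjusted p = 0.73, and -0.16, adjusted p = 0.284). At 11 h ELAVL1 was called higher without dex replicate 2 (0.27, adjusted p = 0.0727). RC3H1, which binds stem-loops as ZC3H12A does, had 13.0 TPM with EtOH (9.85 to 14.8) and 12.9 TPM with dex (10.6 to 17.1). The log2 fold change of RC3H1 lay between -0.14 at 3 h and 0.23 at 9 h (lowest adjusted p 0.229), with intervals from -0.39 to 0.53. RC3H1-202, with 8.76% of the counts, was called higher at 5 h (0.61, adjusted p = 0.082) and at 7 h (0.58, adjusted p = 0.0986), and the transcripts with 46.0% and 45.3% of the counts were not. At 9 h RC3H1 was called higher without EtOH replicate 1 (0.37, adjusted p = 0.0111).

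Per length, the order of the 8 genes with EtOH was HNRNPD, ZFP36L1, KHSRP, ELAVL1, ZFP36L2, ZFP36, RC3H1 and ZC3H12A. The ranges of ZFP36L1 and KHSRP overlapped, as did those of ZFP36, RC3H1 and ZC3H12A. These ranges pool the EtOH libraries of all times, and differences between neighbours within a library were not tested. With dex, ZFP36 (64.9 to 96.6 TPM) reached the range of ELAVL1 (70.2 to 103.5 TPM), and ZC3H12A (20 to 32.7 TPM) lay above RC3H1 (10.6 to 17.1 TPM) without overlap. KHSRP and HNRNPD are annotated with many short transcripts, which raise a level per length, and reads they may share with near-identical copies elsewhere were not separated.

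Across the 24 libraries the log2 CPM of ZFP36 followed that of ZC3H12A (Pearson r 0.948) and of ZFP36L2 (0.881), and ZFP36L2 followed ZC3H12A (0.81). HNRNPD and ELAVL1 had an r of 0.634, and ZFP36L1 and ELAVL1 0.625. Within the 12 dex libraries the first 3 pairs had an r of 0.606, 0.504 and 0.099, and within the 12 EtOH libraries 0.311, 0.148 and -0.128. For HNRNPD with ELAVL1 the values were 0.538 and 0.813, and for ZFP36L1 with ELAVL1 0.44 and 0.832. All are descriptions without a test. Among 9136 genes with a mean of at least 10 CPM, those most like ZFP36 were TSC22D3 (r 0.99), which encodes the GC-induced leucine zipper protein GILZ, and NFKBIA (0.988), which encodes the NF-κB inhibitor IκBα. Those most like ZC3H12A were ERRFI1 (0.956), a feedback inhibitor of the EGF receptor, and DCUN1D3 (0.948). Most like ZFP36L2 were CTGF, a secreted matricellular protein, and RSPRY1 (both 0.945).

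The wider machinery was read from 6 lists of related genes, counting a gene as higher or lower when it was called in the same direction at 2 or more consecutive time points, as were 10.5% (higher) and 9.67% (lower) of all genes tested. Of 23 other ARE or 3′ UTR binding proteins tested, 2 were higher, CPEB4 and ZC3H12C, and 1 was lower, FUBP1. CPEB4, which binds cytoplasmic polyadenylation elements, ranged from 83.3 to 203.5 CPM with dex (median 163.7) and from 42.8 to 61.8 CPM with EtOH (median 55.1). The groups did not overlap, and its log2 fold change went from 0.82 at 1 h (adjusted p = 0.00173) to 1.78 at 7 h (adjusted p = 1.15e-19). ZC3H12C, a relative of ZC3H12A, had medians of 41.1 CPM with dex and 27.2 CPM with EtOH, and a mean log2 fold change of 0.56 over the 6 time points. FUBP1, a relative of KHSRP, had a mean log2 fold change of -0.18. The list's median log2 fold change lay between -0.08 and 0.07.

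The enzymes of decay themselves were called at 2 or more consecutive time points in few cases. Of 20 deadenylation genes, 1 was higher (TOB2, an adaptor of CCR4-NOT, mean log2 fold change 0.36) and 1 was lower (CNOT9, a CCR4-NOT subunit, -0.16). Of 18 genes of decapping and decay from the 5′ end, 2 were higher (EDC3, an enhancer of decapping, 0.32, and LSM1, a subunit of the LSM ring, 0.17) and 2 were lower (DCP2, the decapping enzyme, -0.21, and LSM5, also of that ring, -0.14). Of 16 exosome genes none was higher at 2 or more consecutive time points and EXOSC9, a core subunit, was lower (-0.34). The median log2 fold changes of these 3 lists stayed between -0.17 and 0.10 at all times. These shares of higher and lower genes were near or below those of all genes. Calls at a single time peaked at 3 h for deadenylation, with 2 genes higher and 4 lower of 20 (14.2% of all genes in either direction). For decapping they peaked at 7 h, with 4 genes higher and 2 lower of 18 (28.3%). At 5 h, when 25.0% of all genes were called, 1 deadenylation gene was higher and 1 lower. At that time 2 decapping genes were higher and 2 lower, and 2 of 16 exosome genes were lower. No decapping or exosome gene was called at 3 or 11 h.

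The p38-MK2 axis comprises the kinases p38 and MK2 (MAPKAPK2), which phosphorylate ZFP36 family proteins and hold back their activity, the phosphatases that oppose them, and 14-3-3 proteins. Of 17 genes tested, 6 were higher (MAP2K3, MAPKAPK2, MAPKAPK3, DUSP1, YWHAQ and PPP2CB) and 1 was lower (MAP2K6). The shares over all genes tested were 10.5% higher and 9.67% lower. MAP2K3, described after its values were seen, was higher at 5 and 7 h (log2 fold change 0.37 and 0.53) and was called lower at 9 h (-0.49, adjusted p = 0.0495). DUSP1, the phosphatase that inactivates p38, ranged from 409.4 to 799.1 CPM with dex (median 603.8) and from 180.8 to 248.8 CPM with EtOH (median 220.6). Every dex library was above every EtOH library, and the log2 fold change was 0.98 at 1 h (adjusted p = 5.07e-05) and 1.71 at 11 h (adjusted p = 3.75e-05). PPP2CB, a catalytic subunit of the phosphatase PP2A, was at 0.11 at 1 h (adjusted p = 0.944) and at 0.99 at 3 h (6.98e-09). MAP2K6, a kinase that activates p38, had medians of 18.2 CPM with dex and 26.1 CPM with EtOH. The genes that rose thus include both kinases and phosphatases of the axis. At 7 h, 10 of 17 were called higher and 1 lower, against 28.3% of all genes in either direction, and the list's median log2 fold change was 0.29. This was the time with the most calls: 1, 4, 5, 5 and 4 genes were higher at 1, 3, 5, 9 and 11 h, with 0, 1, 1, 2 and 1 lower and medians of 0.07, 0.14, 0.10, 0.09 and 0.03.

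Known ARE-bearing mRNAs moved in both directions. Of 33 listed, 26 were tested, and CCL20, CSF2, ICAM1, IL1A, IL1B, IL6 and TNF did not pass the filter on low counts. Of the 26, 9 were lower: the chemokines CXCL8, CXCL1 and CCL2, the cytokines IL11, LIF and CSF1, the prostaglandin synthase PTGS2, the early response gene IER3 and the urokinase receptor PLAUR. The 10 that were higher were BIRC3, TNFAIP3, DUSP1, CDKN1A, MCL1, FOS, JUNB, CCND1, VEGFA and MYC. Of all genes tested, 9.67% were lower and 10.5% higher at 2 or more consecutive time points. PLAU, named after its values were seen, was lower at 1 and 3 h and higher at 5, 7 and 9 h. The list's median log2 fold change was -0.28 at 1 h, -0.45 at 3 h, 0.03 at 5 h, 0.06 at 7 h, 0.35 at 9 h and -0.01 at 11 h.

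**Figure D4:**
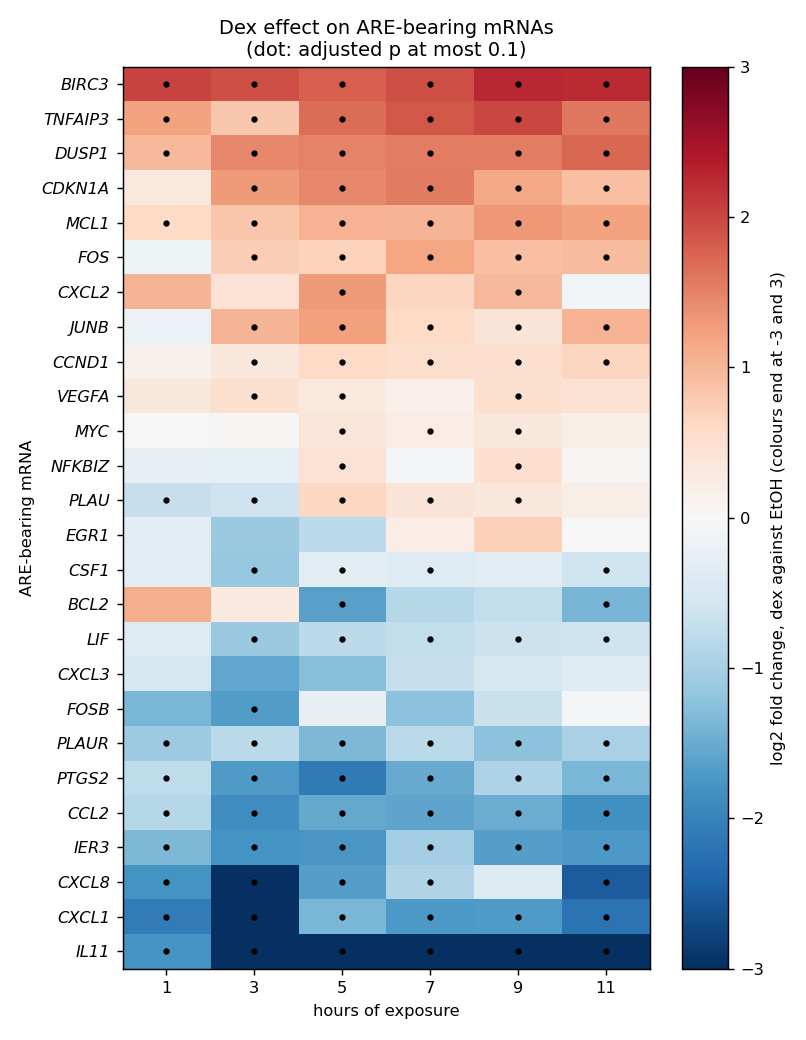
Log2 fold change of dex against EtOH (colour, ending at -3 and 3) for the 26 tested ARE-bearing mRNAs (rows, by mean) at each hour of exposure (columns), with a dot where the adjusted p was at most 0.1. BIRC3, TNFAIP3 and DUSP1 are at the top and IL11 and CXCL1 at the bottom.

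IL11 had the largest fall among the ARE-bearing mRNAs tested, by its mean over the 6 time points. It ranged from 2.03 to 10.2 CPM with dex (median 3.23) and from 28.8 to 38.5 CPM with EtOH (median 32.9). Its log2 fold change was -1.78 at 1 h (adjusted p = 2.96e-06) and -3.53 at 5 h (adjusted p = 1.72e-17). CXCL1 was at 0.44 to 2.53 CPM with dex against 5.88 to 9.00 CPM with EtOH, with a log2 fold change of -3.60 at 3 h (adjusted p = 6.62e-09). On the other side, BIRC3, an apoptosis inhibitor in TNF signalling, ranged from 149.9 to 212.3 CPM with dex and from 33.1 to 55.5 CPM with EtOH, and TNFAIP3 (A20), an inhibitor of NF-κB, from 8.51 to 21.8 CPM and 3.70 to 6.01 CPM. All 4 were without overlap between treatments. Their mean log2 fold changes were -3.17, -2.12, 2.03 and 1.52, in the order named.

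The nonamer printed above for the ZFP36 family was in 6 of the 9 lower mRNAs (CXCL8, CXCL1, IL11, LIF, PTGS2 and PLAUR), in 4 of the 10 higher (FOS, TNFAIP3, DUSP1 and BIRC3) and in 3 of the other 7 tested. The IL11 3′ UTR held 6 and that of CXCL1 held 3. Among the other 7, that of CXCL2 held 5, and CXCL2 was called higher at 5 h and at 9 h (log2 fold change 1.28 and 0.97). LIF, of the lower mRNAs, and DUSP1, of the higher, held 2 each. Over the 18969 genes searched, 7.6% held a nonamer. Of all 33 listed mRNAs, chosen as known ARE-bearing, 16 held a nonamer and 26 a heptamer in the 1 transcript searched. The split by direction was not tested. Over all 12885 genes tested with a searched 3′ UTR, 24.4% of the 258 with 2 or more nonamers were called lower and 13.6% higher at 7 h. The shares were 20.4% and 17.2% of the 864 with 1 nonamer, and 14.4% and 15.9% of the 11763 with none. The corresponding shares at 3 h were 12.8% lower and 6.59% higher with 2 or more nonamers, 11.0% and 11.3% with 1, and 5.9% and 9.21% with none. At 9 h they were 13.6% and 12.8% with 2 or more, 9.72% and 16.0% with 1, and 10.7% and 10.6% with none. At 11 h they were 9.3% and 5.43%, 6.25% and 9.38%, and 3.51% and 5.92%. At 1 h they were 2.71% and 1.94% with 2 or more, 1.39% and 2.31% with 1, and 0.349% and 0.553% with none. At 5 h they were 20.5% and 12.4%, 16.7% and 15.0%, and 13.6% and 13.4%. With 1 nonamer, more mRNAs were thus higher than lower at 1, 3, 9 and 11 h. The same held for mRNAs with no nonamer at 1, 3, 7 and 11 h. The median log2 fold change of mRNAs with 2 or more nonamers was 0.05 at 1 h, -0.08 at 3 h, -0.06 at 5 h, -0.09 at 7 h, 0.01 at 9 h and -0.07 at 11 h. These classes also differ in length, with a median 3′ UTR of 4044.5 bases for 2 or more nonamers, 2737.5 for 1 and 1031 for none, and the part of length in the shares was not tested.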

How the data were processed

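The authors aligned single-end reads from stranded poly-A libraries with Bowtie to the transcripts of GENCODE release 19 and took per-transcript totals from samtools, and the labels name hg19. The deposited values are raw counts, not divided by depth or length. The treatment of reads with several matches is not given in the sources used here, and the row for unplaced reads held 0 counts. The labels hold 2 replicates per group where the study's methods speak of triplicates. Time was taken from the duration label, although the protocol text of every library gives 1 h.

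Transcripts were joined to GENCODE release 29 (GRCh38) by identifier without version and summed per gene: 110262 of 119207 matched and held 94.08% of the counts. Genes were kept by filterByExpr over the 12 groups. edgeR 4.0.16 (R 4.3.3) fitted each time point by itself after TMM normalization, with the robust quasi-likelihood F-test, Benjamini-Hochberg adjustment over 15337 genes and a threshold of 0.1. The dex effect over time was tested over 24 libraries and time in EtOH over 12. Standard errors are the log2 fold change over the square root of its F. CPM are scaled by TMM, and log2 CPM has a prior count of 2. TPM was computed here from the counts and release 29 transcript lengths. The script was tested on simulated data. With 2 libraries a group, precision rests on dispersions shared between genes. Of the 24 libraries none was left out.

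The 8 genes and the lists were chosen with earlier results of these data known. Named from each list are those called at 2 or more consecutive time points, with values for the 2 largest mean log2 fold changes in each direction, and for likeness the 2 genes of highest r with each gene called at 2 or more consecutive times. Some genes of the lists are not reported here, and the counts and medians of the list of ARE-bearing mRNAs are without them. The searches for ARE and promoter motifs were added after the counts were seen, 1 transcript a gene for the former. Alternatives were DESeq2 1.42.0, its size factors in edgeR, no filter, at least 10 counts in every library, 1 fit over 24 libraries, a replicate block, a threshold of 0.05, 1 transcript per gene, and leaving out each library. For the tests over time, all libraries of 1 replicate number and treatment were left out together, and leaving out single libraries was added after seeing the data. Figures were drawn with matplotlib 3.10.9.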

Additional observations from a re-analysis of the deposited data

Results flagged for a closer look

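The dex effect on ZFP36L1 differed between time points (F-test of edgeR over 24 libraries, adjusted p = 0.0573), from a log2 fold change of -0.40 ± 0.12 (SE) at 1 h to 0.24 ± 0.12 at 9 h. It was below 0 at 4 of 6 time points. The call was lost at a threshold of 0.05, without all EtOH libraries of either replicate number, and in 5 of 24 cases when 1 library was left out (adjusted p up to 0.193). ZFP36L1 was also called for a change over time in the EtOH libraries alone (adjusted p = 0.0721), which was lost at 0.05 and in 9 of 12 cases with 1 library left out.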

How the results depend on the processing

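ZFP36 and ZC3H12A kept their calls under all 72 alternative values each, with log2 fold changes of 2.25 to 3.13 and 1.03 to 2.19. ZFP36L2 kept 51 of 60 calls and ZFP36L1 20 of 24 where they were called, and no called value changed direction under these alternatives. The number of genes called was 4 of 8 at 1 h with a replicate block, where 2 were called without it (ZFP36L1 and ZFP36L2 were added), and 2 at 7 h in one fit over 24 libraries, against 4. Leaving out 1 library gave 2 to 4 genes at 7 h, 3 to 5 at 9 h (3 with all libraries), 2 to 5 at 11 h (3 with all libraries), and, for the dex effect over time (1 with all libraries, ZFP36L1), 0 to 2 both when 1 library was left out and when all 6 of a treatment and replicate number were. Leaving out 1 EtOH library gave 0 to 5 for time in EtOH (1 with all libraries, ZFP36L1). The count for the dex effect over time was also 0 at a threshold of 0.05, and 2 with no filter and 2 with at least 10 counts in every library. For time in EtOH the count was 0 at 0.05 and 4 with no filter, against 1. Apart from the fewer libraries or the threshold itself, the cause was not tested. Deviations of same-numbered dex and EtOH libraries had correlations of -0.07 to 0.16 over the 6 time points, the highest at 1 h. The numbers were not taken as a pairing, although the study's methods call the vehicle control paired. The block changed the count by over 1.5 times only at 1 h, so whether ZFP36L1 and ZFP36L2 are called at 1 h depends on this choice. For time in EtOH, leaving out all libraries of 1 replicate number leaves no residual and was not run. With 2 libraries a group, precision depends on dispersions shared between genes.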
